A study of Mus musculus with 17 samples.

Results

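The genes Gja1, Gja3, Gje1, Mip, Aqp1 and Aqp5, which encode membrane channels of the lens, were examined for histone H3.3 in the chromatin of newborn mouse lens epithelium and lens fibers. The 6 genes were taken by symbol, as known channels of the lens, from 21938 protein-coding genes, by a rule that uses no measured value. Connexins assemble into gap junctions, which join the cytoplasm of neighbouring cells and let ions and small metabolites pass. Aquaporins are water channels of the plasma membrane. The lens has no blood vessels, and its inner fibers are known to depend on an internal circulation of ions and water through such channels. Gja1 (connexin 43) is the gap junction protein of the lens epithelium, Gja3 (connexin 46) that of the fibers, and Gje1 (connexin 23) is a connexin needed for the mouse lens. Mip (aquaporin 0) is the most abundant membrane protein of fibers, Aqp1 is the water channel of the epithelium, and Aqp5 is found in both compartments. H3.3 is a histone H3 variant that is deposited outside of DNA replication and accumulates at transcribed genes.

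The tissue came from CD1 mice, for which the labels name no transgene or treatment, and lenses were microdissected into epithelium and fiber. The sample labels place the mice at postnatal day 1 in the titles and day 0.5 in the protocol, and give 150 pooled lenses for each sample. Each compartment had 2 H3.3 ChIP-seq libraries, described as biological replicates, here called epithelium 1, epithelium 2, fiber 1 and fiber 2. The measurement is a list of islands for each library, where an island is a region in which the caller found ChIP reads above background, with the number of its reads. For each gene, the islands over its gene body and 5 kb on each side, called the window, were collected. The values are the share of the window covered, the length of the longest island over it, and the reads per kb of those islands. With 2 libraries against 2, an exact permutation test has 6 regroupings and a smallest two-sided p of 0.33, so that no single difference can reach significance. A gene is called higher in fibers where both fiber values lie above both epithelium values. The chromatin of many lenses was pooled, and fewer cells with H3.3 at a gene cannot be told apart from less H3.3 in each cell.

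The lists held 10389 and 14434 islands in the epithelium libraries and 27059 and 35940 islands in the fiber libraries, with 1331369 to 5359085 reads in islands. The total number of reads in a library is not given in the sources used here, so sequencing depth is unknown and a gene without an island is not shown to lack H3.3. Over all protein-coding genes, the mean covered share of the window was 7.40% and 7.66% in epithelium and 21.0% and 20.9% in fibers. Every gene is therefore read against this general difference. Of 5 marker genes of lens fibers, Cryba1 carried an island in the epithelium libraries, with 22.8% and 50.4% of its window covered, and the other 4 had none there. All 3 markers of lens epithelium, Pax6, Foxe3 and Cdh1, were higher in fibers, with differences of 11.6, 57.2 and 28.8 points. Of 8 markers of retina, cornea, pigment cells, vessels and blood cells, Crx, Krt12, Tyr, Kdr and Ptprc had no island in any library, and the mean covered share of the 8 was 3.86%, 1.28%, 7.81% and 5.46% in epithelium 1, epithelium 2, fiber 1 and fiber 2. What part cells of the other compartment or of other tissues have in the values below was not tested.

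The channel genes divided into 3 kinds. Gja3 and Mip were covered almost from end to end in both fiber libraries, Aqp1 and Aqp5 carried moderate islands that were wider in fibers, and Gja1 and Gje1 had little or no H3.3 island in either compartment. Islands lay over the window of Gja1, Aqp1, Aqp5 and Mip in both epithelium libraries, 4 of 6 genes against 24.7% of all protein-coding genes. For Aqp1 the island of epithelium 1 reached into the window by only 169 bp. For Gja1 no base was under islands in both epithelium libraries. In both fiber libraries islands lay over Aqp1, Aqp5, Gja3 and Mip, again 4 of 6, against 52.3% of all genes. The covered share was higher in fibers for Aqp1, Aqp5, Gja3 and Mip, 4 of 6, against 45.0% of all genes. None of the 6 was higher in both epithelium libraries, a pattern that 0.670% of all genes showed. Gje1 was the only one without an island in any library, as were 35.5% of all genes.

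**Figure D1:**
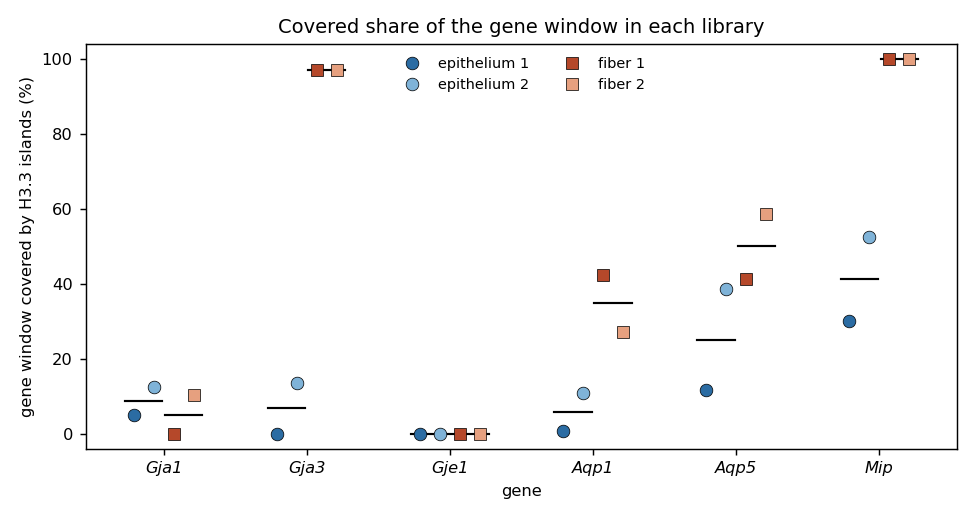
Share of the gene window (gene body and 5 kb on each side, in percent) covered by H3.3 islands for each channel gene. Circles are the 2 epithelium libraries, squares the 2 fiber libraries, and bars the mean of each compartment (n = 2). Gja3 and Mip stand at 97.03% and 100% in both fiber libraries, and Gje1 at 0 in all 4.

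Gja3 lies on the minus strand of chromosome 14, from 57034460 to 57058100 in GRCm38, and its window spans 33.6 kb. Islands covered 0% and 13.7% of the window in epithelium 1 and 2 and 97.03% in each of fiber 1 and fiber 2. The compartments did not overlap, and the mean was 6.84% ± 9.67 in epithelium against 97.03% ± 0 in fibers (SD, n = 2, exact permutation test, two-sided, p = 0.33). The difference of 90.2 percentage points exceeded that of 99.9% of all protein-coding genes.

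In fiber 1 an island of 38.2 kb with 1334 reads ran from -11.1 to 27.1 kb relative to the start of Gja3, and so held the whole gene. In fiber 2 the gene lay under islands of 23.6 kb and 13.0 kb that were parted by a gap of 1 kb. Fiber islands covered 100% of the exons in both libraries, and 100% and 95.2% of the introns. In epithelium 2 there were islands of 2.2 kb and 2.4 kb, the shorter of them over the start of the gene, whereas in epithelium 1 the nearest island was 55.7 kb away. Of the window, 27.2 kb was under islands in both fiber libraries and in neither epithelium library. The wide coverage went beyond the gene itself, since islands took up 0.984% and 3.85% of the gene body and 100 kb on each side in epithelium and 38.9% and 34.7% in fibers.

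Mip lies on the plus strand of chromosome 10, from 128225838 to 128231812, and its window spans 16.0 kb. Islands covered 30.1% and 52.6% of the window in epithelium 1 and 2, and the whole window, 100%, in both fiber libraries. The mean was 41.3% ± 15.9 in epithelium (SD, n = 2), below both fiber values by 58.7 percentage points (exact permutation test, two-sided, p = 0.33). This difference was larger than that of 96.5% of all protein-coding genes. The window was full in fibers, so that no higher value was possible there.

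The island over Mip in fiber 1 was 56.8 kb long with 2081 reads, and 99.9% of the islands of that library were shorter. It ran from -35.0 to 21.8 kb relative to the start of Mip, and also held the whole of the neighbouring genes Gls2 and Spryd4 and the start of Timeless. The island in fiber 2 was 26.0 kb long with 1075 reads and ran from -5.64 to 20.4 kb, over the whole of Mip and the start of Timeless. Because the island of fiber 1 lies mostly outside the window, a rule that kept only islands with at least 50% of their length inside it left that library at 0% and the difference at 8.69 points, with overlapping compartments.

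Epithelium 2 also had an island over the start of Mip, of 3.8 kb, but epithelium 1 did not. The part of the Mip window under islands in both epithelium libraries was 3.0 kb long, and both of those islands also held the start of Timeless, a gene of DNA replication fork protection that lies just downstream. The 5 kb upstream of Mip were covered over 0% and 28.7% in epithelium and 100% in both fiber libraries. With the 5 kb downstream left out, an alternative added after seeing the data, the covered share was 29.3% and 47.5% in epithelium and 100% in both fiber libraries.

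**Figure D2:**
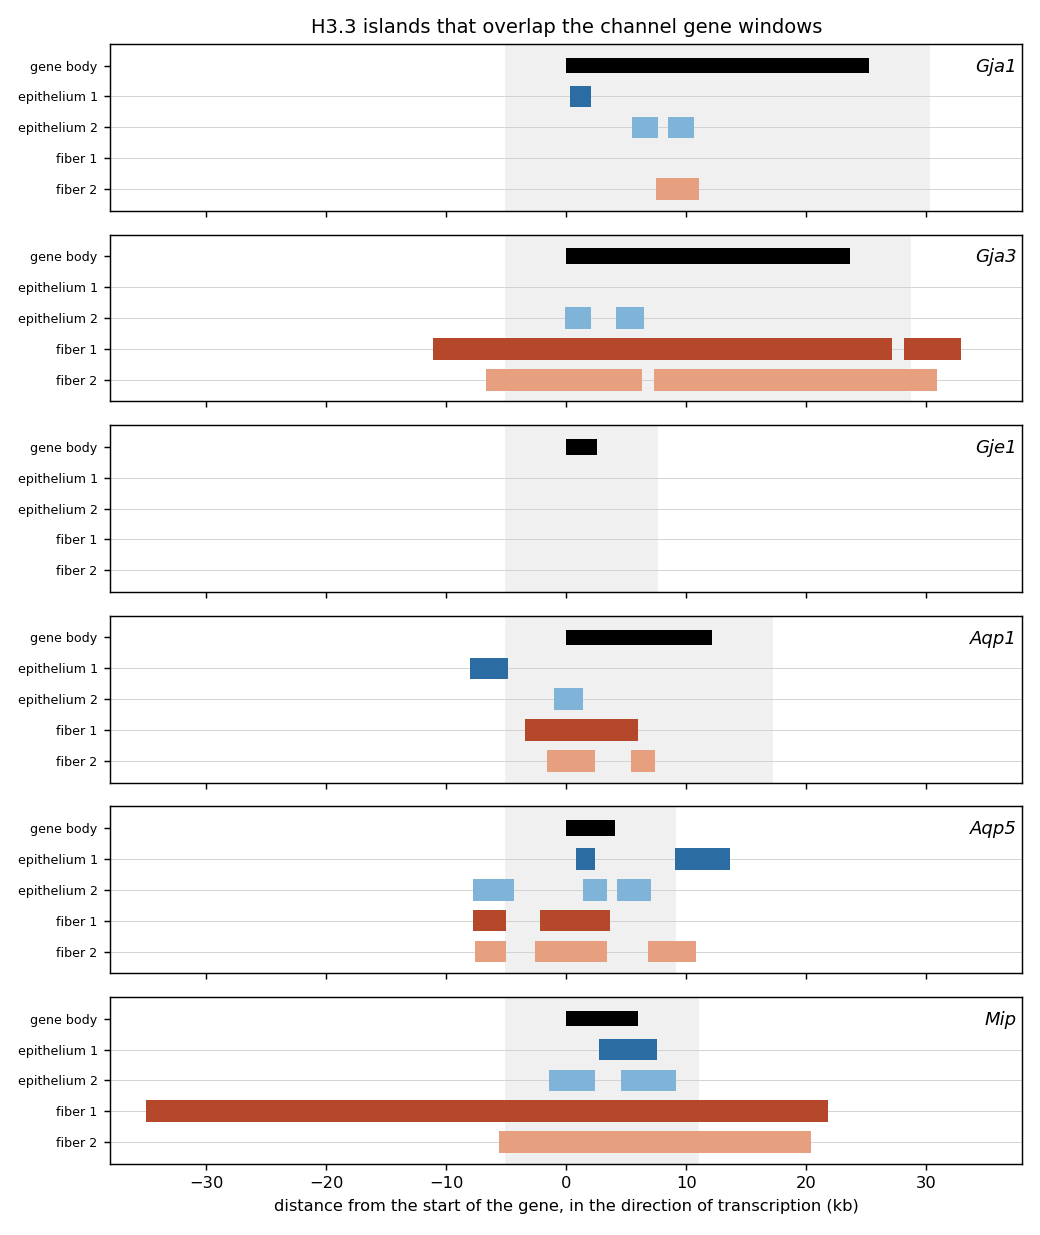
H3.3 islands that overlap the window of each channel gene, placed by distance in kb from the start of the gene in the direction of transcription. Black bars are gene bodies, grey areas the windows, and colored bars the islands of each library. Fiber islands reach past both ends of Gja3 and Mip, those of Aqp1 and Aqp5 cover the start, and Gje1 has none.

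The bases just upstream of the starts are shown for 4 of the genes, 3 of them under islands in fibers and 1, Gja1, under none. The 250 bases upstream of Gja3, Mip and Aqp1 were wholly under islands in both fiber libraries and under none in epithelium 1. In epithelium 2 islands covered 100% of those of Mip and Aqp1 and 68% of those of Gja3. The sequences are from RefSeq promoters of GRCm38.p6, in which 5 of the 6 genes had an entry. Each runs 5′ to 3′ on the strand of the gene up to the RefSeq start, or for Gja3 up to the GENCODE start, which lies 70 bases further upstream. Capitals mark matches on either strand to 5 short motifs, namely TATAAA, an element of the core promoter, CCAAT, which nuclear factor Y binds, GGGCGG, which Sp proteins bind, TGANTCA, the element of AP-1 proteins, and TGCTGA, part of the element of Maf proteins.
Gja3, chr14:57058101-57058280, minus strand: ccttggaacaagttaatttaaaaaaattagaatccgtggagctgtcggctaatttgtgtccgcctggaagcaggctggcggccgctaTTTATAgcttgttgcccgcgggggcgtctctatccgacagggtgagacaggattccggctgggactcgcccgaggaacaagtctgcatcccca
Mip, chr10:128225560-128225809, plus strand: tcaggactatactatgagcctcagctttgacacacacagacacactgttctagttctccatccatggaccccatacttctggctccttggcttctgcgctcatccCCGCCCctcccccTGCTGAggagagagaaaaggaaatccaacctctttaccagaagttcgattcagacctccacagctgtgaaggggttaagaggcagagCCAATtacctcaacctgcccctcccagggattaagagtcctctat
Aqp1, chr6:55336049-55336298, plus strand: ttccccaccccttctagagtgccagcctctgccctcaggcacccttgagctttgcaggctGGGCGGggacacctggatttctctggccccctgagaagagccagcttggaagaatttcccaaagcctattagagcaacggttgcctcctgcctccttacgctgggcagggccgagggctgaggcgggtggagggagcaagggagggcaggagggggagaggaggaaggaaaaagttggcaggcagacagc
Gja1, chr10:56377050-56377299, plus strand: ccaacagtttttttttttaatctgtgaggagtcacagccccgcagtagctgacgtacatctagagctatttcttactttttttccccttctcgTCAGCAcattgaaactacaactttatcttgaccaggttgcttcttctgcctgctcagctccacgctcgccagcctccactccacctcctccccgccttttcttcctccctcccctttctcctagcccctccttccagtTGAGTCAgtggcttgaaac

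The 4 stretches had no motif in common. The Gja3 stretch held TATAAA, as did 12.4% of 32817 promoters of 250 bases. This match lay at -163 to -158 counted from the RefSeq start. The Gja3 stretch was rich in CG pairs, with 26 in the full 250 bases against a median of 6. That of Mip held CCAAT at positions -45 to -41, GGGCGG at -145 to -140 and TGCTGA at -132 to -127, counted from the start with -1 as the last base printed, motifs found in 33.8%, 32.7% and 16.1% of promoters. It had 3 CG pairs. The Gja1 stretch held TGCTGA as well, and TGANTCA at positions -19 to -13, which 6.75% of promoters share. That of Aqp1 held GGGCGG only, and 5 CG pairs. The stretches under fiber islands thus ranged from few to many CG pairs. The RefSeq start of Aqp5 lies 246 bases downstream of the GENCODE start, inside its annotated gene, and its 250 bases, which hold GGGCGG at 2 places and 38 CG pairs, are not shown. A match is a run of letters and not a bound site.

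Gja1, the connexin of the epithelium, lies on the plus strand of chromosome 10 from 56377330 to 56402513, with a window of 35.2 kb. Islands covered 5.12% and 12.5% of it in epithelium 1 and 2 and 0% and 10.2% in fiber 1 and 2. The compartments overlapped, at 8.81% ± 5.23 in epithelium and 5.12% ± 7.24 in fibers (SD, n = 2), and the difference of -3.70 points gave p = 0.67 in an exact two-sided permutation test. The direction rested on fiber 1, without which the difference was 1.42 points, and on epithelium 2, without which it was 0. Among all protein-coding genes, 2.45% had a lower difference than Gja1.

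The islands of Gja1 were short and did not lie in the same place. Epithelium 1 had an island of 1.8 kb that began 0.271 kb after the start, epithelium 2 had 2 islands of 2.2 kb each between 5.47 and 10.7 kb, and fiber 2 had an island of 3.6 kb from 7.47 to 11.1 kb. No base was under islands in both epithelium libraries, and no library had an island over the start of the gene. In fiber 1 the nearest island was 517.9 kb from the gene. When only islands of at least the median reads per kb of their library were counted, the island of fiber 2 dropped out and the covered shares became 5.12% and 6.25% in epithelium and 0% in both fiber libraries, so that Gja1 was then higher in epithelium, with a difference of -5.68 points. Taking 10389 islands from each library by read count gave the same 4 values.

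Aqp1, the water channel of the epithelium, lies on the plus strand of chromosome 6 from 55336432 to 55348555, with a window of 22.1 kb. Islands covered 0.764% and 10.9% of it in epithelium 1 and 2 and 42.5% and 27.1% in fiber 1 and 2. The fiber values lay above the epithelium values by 29.0 points, with means of 34.8% ± 10.9 and 5.81% ± 7.13 (SD, n = 2, exact permutation test, two-sided, p = 0.33). A lower difference was found for 81.0% of all protein-coding genes.

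The islands over the start of Aqp1 were 2.4 kb long in epithelium 2, 9.4 kb in fiber 1 and 4.0 kb in fiber 2. Epithelium 1 had only an island of 3.2 kb upstream, which reached into the window by 169 bp. In fibers, islands covered 58.2% and 41.3% of the introns and 16.9% of the exons in both libraries, the coverage ending well before the end of the gene. The island of fiber 1 was thin, with 22.5 reads per kb, and 7.62% of the islands of that library held fewer. Those of fiber 2 held 26.5 and 28.5 reads per kb, and 40.8% and 57.7% of the islands of that library held fewer. Where only islands of at least the library median were counted, the shares became 0.764% and 0% in epithelium and 0% and 9.04% in fibers, and with the same number of islands taken from each library by reads per kb, both fiber libraries stood at 0% and the difference was -0.38 points.

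Aqp5 is the shortest of the 3 water channel genes, on the plus strand of chromosome 15 from 99590782 to 99594829, with a window of 14.0 kb. Islands covered 11.6% and 38.6% of it in epithelium 1 and 2 and 41.4% and 58.7% in fiber 1 and 2. All 4 libraries carried H3.3, and the fiber values were higher by 25.0 points, at 50.1% ± 12.2 against 25.1% ± 19.1 (SD, n = 2, exact permutation test, two-sided, p = 0.33). The size of the difference depended on the libraries and was 11.5 points without epithelium 1, 38.5 points without epithelium 2 and 16.3 points without fiber 2. A lower difference was found for 77.4% of all protein-coding genes.

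The compartments differed in where the islands of Aqp5 lay. In fibers, islands of 5.8 and 6.0 kb began at -2.18 and -2.58 kb relative to the start and covered it, whereas in epithelium islands of 1.6 and 2.0 kb began at 0.819 and 1.42 kb, within the gene. Introns of Aqp5 were covered over 62.2% and 74.9% in epithelium and 100% in both fiber libraries, and exons over 11.1% and 17.5% in epithelium and 76.1% and 65.0% in fibers. A stretch of 1.0 kb within the gene was under islands in all 4 libraries. The island of 4.6 kb in epithelium 1 and that of 4.0 kb in fiber 2 at the far end of the window held the start of Aqp6, the next aquaporin gene.

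Gje1 is the smallest gene of the 6, on the minus strand of chromosome 10 from 14715623 to 14718214, with a window of 12.6 kb. No library had an island in it, so its covered share was 0% in all 4. The nearest island lay 3599 and 1846 kb away in epithelium 1 and 2, and 656 and 23.6 kb away in fiber 1 and 2. Reads cannot be placed with certainty in repeated sequence. Of the stretches of 75 nt, the length of a read, 2.58% within the gene and 17.7% in the window occur elsewhere in the genome. In the other 5 windows the share ran from 0% for Aqp1 to 3.52% for Mip. Whether repeats bear on the absence of islands at Gje1 was not tested. The window of Gje1 had the lowest GC content, 35.7% against 41.9% to 53.9%, and the fewest CG pairs, 7.31 per kb against 11.7 to 22.4 per kb.

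At the start of the gene, islands were present in both fiber libraries for Aqp1, Aqp5, Gja3 and Mip, 4 of 6, against 31.4% of all protein-coding genes. None of the 6 starts was under an island in both epithelium libraries, which 6.83% of all genes were. The starts of Aqp1, Gja3 and Mip were covered in epithelium 2 and not in epithelium 1. The start of Aqp5 was covered in neither, and those of Gja1 and Gje1 in no library.

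The longest island over the window was longer in both fiber libraries for the same 4 genes, 4 of 6 against 44.2% of all protein-coding genes. For Mip it was 4.8 and 4.6 kb in epithelium and 56.8 and 26.0 kb in fibers, and for Gja3 it was 0 and 2.4 kb in epithelium and 38.2 and 23.6 kb in fibers. For Aqp1 and Aqp5 the islands differed less, with 3.2, 2.4, 9.4 and 4.0 kb and with 4.6, 3.4, 5.8 and 6.0 kb in epithelium 1, epithelium 2, fiber 1 and fiber 2. Those of Aqp1 in epithelium 1 and of Aqp5 in both epithelium libraries lay mostly outside the window and reached into it by 169, 29 and 619 bp, while the islands of epithelium within Aqp5 itself were 1.6 and 2.0 kb long. The median island of the 4 libraries was 3.0 to 5.2 kb long. Mip and Gja3 in fibers were thus among the longest islands, and at least 99.0% of the islands of the same library were shorter, while for the longest islands at Aqp1, Aqp5 and Gja1 this share was 2.34% to 85.0% over the libraries. The sum of a pair of islands cut by a short gap depends on that gap: with islands within 1 kb merged, the longest at Gja3 was 44.0 and 41.6 kb and at Mip 70.0 and 44.8 kb in fibers.

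**Figure D3:**
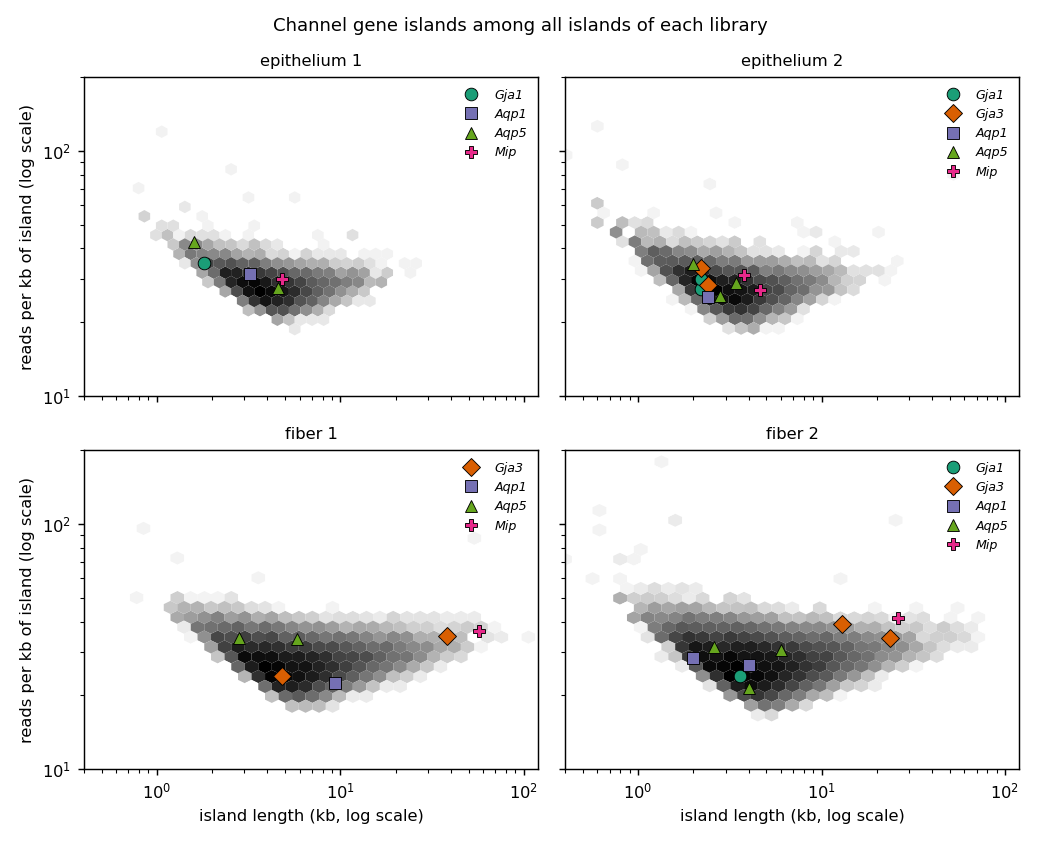
Length in kb and reads per kb of the islands at channel genes (colored symbols) among all islands of the same library (grey, darker where more islands lie), on log scales, 1 panel for each library. The longest islands of Mip and Gja3 lie at the right edge in fibers, up to 56.8 kb. Shorter fiber islands of Gja3, of 4.8 kb in fiber 1 and 13.0 kb in fiber 2, lie further left. In epithelium the islands of both genes lie among the other islands, and none is longer than 4.8 kb.

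The reads per kb of island could be compared for the 3 genes with islands in all 4 libraries. Mip had 30.0 and 28.9 reads per kb in epithelium and 36.6 and 41.4 reads per kb in fibers, 1.32 times as many on average (exact permutation test, two-sided, p = 0.33). Divided by the total of reads in islands of each library, which is larger in fibers, the ratio turned to 0.3504. It was the only 1 of the 3 with both fiber values above both epithelium values, against 30.8% of the 5246 genes with islands in all 4 libraries. The island of Mip was dense for its library in fibers, since 95.2% and 98.2% of islands held fewer reads per kb, but not in epithelium 1, where 65.8% did. The values of Aqp5 were 31.5 and 29.2 reads per kb in epithelium and 34.1 and 27.9 in fibers, and those of Aqp1 were 31.6 and 25.4 in epithelium and 22.5 and 27.2 in fibers, and both overlapped. The ratio of fiber to epithelium at Aqp5 was 1.02, and 0.272 after division by that total. Gja3 had 30.7 reads per kb in epithelium 2 and 33.7 and 36.1 in fibers. Gja1 was densest in epithelium 1, with 35.0 reads per kb, against 28.6 in epithelium 2 and 23.9 in fiber 2. These densities are not scaled to the total of a library, and the median over all islands lay between 27.4 and 28.3 reads per kb in the 4 libraries.

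The 3 genes known as channels of fibers were set against the 2 known as channels of the epithelium, with Aqp5 in neither class. The mean covered share of Mip, Gja3 and Gje1 was 10.02%, 22.1%, 65.7% and 65.7% in epithelium 1, epithelium 2, fiber 1 and fiber 2, and that of Gja1 and Aqp1 was 2.94%, 11.7%, 21.2% and 18.7%. Both classes were therefore higher in fibers. The fiber channel genes exceeded the epithelial ones by 7.08 and 10.4 points in epithelium and by 44.4 and 47.0 points in fibers, a change of 37.0 points (exact permutation test, two-sided, p = 0.33). With the median over the genes of a class in place of the mean the change was 77.5 points, with summed bp it was 54.9 points, and in both cases fibers were higher. Gje1 went against its class, and without it the fiber channel genes stood at 15.02% and 33.1% in epithelium and 98.5% in both fiber libraries. The class of epithelial channels was not uniform either, as Aqp1 was higher in fibers and Gja1 was not.

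In order of the mean covered share, the genes ran in fibers from Mip and Gja3 through Aqp5, Aqp1 and Gja1 to Gje1. The values of Aqp5 and Aqp1 overlapped there, as did those of Gja1 and Gje1, while Mip and Gja3 each lay clear of the others and Aqp1 lay above Gja1 in both libraries. In epithelium the order was Mip, Aqp5, Gja1, Gja3, Aqp1 and Gje1, and neighbours in that order overlapped between libraries, except that Aqp1 lay just above Gje1, which was at 0. Mip and Aqp5 had mean covered shares in epithelium of 41.3% and 25.1%, and for Mip part of this is the coverage at Timeless described above.

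The number of islands is itself larger in fibers, and the comparison was repeated with the 10389 islands of highest read count from every library. This choice leaves the list of epithelium 1 unchanged and favors long islands. It is therefore no check on the long fiber islands of Gja3 and Mip. Gja3 then stood at 0% and 13.7% in epithelium and 95.4% and 97.03% in fibers, and Mip at 30.1% and 52.6% in epithelium and 100% in both fiber libraries. Aqp5 stood at 11.6% and 38.6% in epithelium and 41.3% and 42.7% in fibers. These 3 remained higher in fibers, while Aqp1 was covered over 0.764% and 0% in epithelium and 42.5% and 0% in fibers, which overlap.

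Among the 17 other genes of the connexin family, 9 had no island in any library, against 35.5% of all protein-coding genes. Over the whole family of 20 genes, with Gja1, Gja3 and Gje1, 10 had no island, 5 were higher in fibers, against 45.0% of all genes, and none was higher in epithelium. The median difference of the family was 0 points against 4.72 points for all protein-coding genes. Gjc1 (connexin 45) had no island in epithelium and 18.0% and 21.9% of its window covered in fibers. Gja3 therefore stood far from the middle of its family. Of 12 genes of the aquaporin family, Mip included, 7 were higher in fibers, against 45.0% of all genes, none was higher in epithelium, and 3 had no island, against 35.5% of all genes. The median difference was 14.2 points. Without Mip, Aqp1 and Aqp5, 4 of 9 were higher in fibers, close to the share of all genes. Among these is Aqp2, a neighbour of Aqp5 that shares its longest fiber islands, so the 2 genes are not independent counts. Aqp12 had 0% and 4.198% in epithelium and 33.1% and 36.8% in fibers, and Aqp8 had no island in epithelium and 22.9% and 30.6% in fibers. Among aquaporins, Mip was the only gene covered over more than 60% of its window in a fiber library.

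A list of 11 partners was taken from what is known of these proteins: adhesion and scaffold proteins of junctions, calmodulins, which bind Mip and connexins, the beaded filament proteins of fibers, and a ubiquitin ligase of connexin 43. The list was chosen with earlier results of these data known, so its counts are descriptive and no independent finding. Of the 11, 10 were higher in fibers, against 45.0% of all genes, and 1, Cav1, had no island in any library. The median difference was 59.8 points against 4.72 points for all genes. Bfsp1 (filensin), a beaded filament protein that is also a fiber marker, had no island in epithelium and 95.8% and 95.3% of its window covered in fibers. Cdh2 (N-cadherin) had 0% and 0.781% in epithelium and 75.1% and 77.8% in fibers, Calm2 (calmodulin) had 23.0% and 6.80% in epithelium and 85.0% and 85.8% in fibers, and Nedd4, the ubiquitin ligase, had 20.8% and 15.6% in epithelium and 92.0% and 84.8% in fibers. All 3 calmodulin genes and both beaded filament genes were among the 10.

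**Figure D4:**
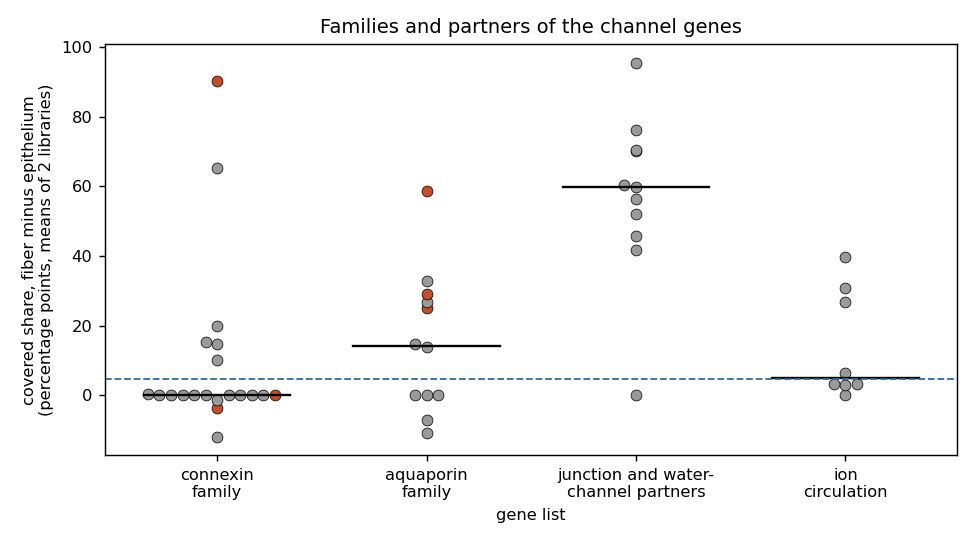
Difference in covered share between fiber and epithelium, in percentage points, for each gene of the connexin and aquaporin families, of the partners and of the ion circulation list. Red points are the 6 channel genes, grey points the other genes, black lines the median of each list, and the dashed blue line the median of all protein-coding genes at 4.72 points. Connexins and aquaporins lie mostly between -11.9 and 32.9 points, with Gja3 at 90.2 and Mip at 58.7 points. Another connexin, whose values are not reported here, also lies above that range.

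The genes most like each channel gene were found by the Euclidean distance over 8 values, the covered share and the reads per kb in the 4 libraries, among genes more than 1 Mb away. A library without an island was entered with 0 reads per kb. For Gja3 and Gja1 this favors genes that also lack an island in that library. Nearest to Gja3 were Maf, a transcription factor gene, with 0%, 9.76%, 94.9% and 94.8% of its window covered in epithelium 1, epithelium 2, fiber 1 and fiber 2, and Cryba2, a beta-crystallin gene, with 0%, 15.1%, 100% and 93.9%. Nearest to Mip were Dpf1, with 32.1%, 56.98%, 96.5% and 96.7%, and Crim1, with 38.8%, 48.7%, 96.2% and 98.3%. Aqp1 was nearest to Tpst1 and Nfatc1 and Aqp5 to Arhgef40 and Lmtk3, and March8 was among the genes nearest to Gja1, at distances of 8.35 to 10.9. Gje1, without an island, was not matched. The distances for Gja3 and Mip were 6.51 to 11.1.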

How the data were processed

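H3.3 was measured by ChIP-seq in 2 libraries of lens epithelium and 2 of lens fibers. The authors mapped reads of 75 nt with BWA to mm10 (GRCm38), and islands of each library were called by SICER (windows of 200 bp, gaps of 600 bp, false discovery rate 0.01, per the file names). The deposited lists give positions and a count of reads for each island, without normalization. Printed positions are counted from 1. The title of the pooled input library calls it a control, but whether the caller used it is not stated in the sources used here. The pooled input and the bisulfite libraries were not analysed here. The labels and the study's methods differ on the number of lenses.

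Islands were intersected with windows of protein-coding genes of GENCODE on GRCm38. Covered share, longest island and reads per kb of all islands touching the window were computed per library, and compartments were compared by exact two-sided permutation over libraries. Files of islands fit no model over counts. The genes and lists were chosen with earlier results of these data known. Named genes were the 6 channel genes, at most 4 of each list with an island in both libraries of a compartment and the largest difference, the nearest genes by distance, and neighbours under the same island. The values of some genes that this rule names are not reported here.

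Alternatives left out each library, changed the flank (0, 2 or 10 kb), the overlap rule, the islands counted, the scaling of reads and the merging of islands, and paired libraries by number. The tools were Python 3.11.15, numpy 2.4.6, numba 0.67.0 and matplotlib 3.10.9. On simulated islands at 2000 genes, 200 of 200 planted changes in covered share were recovered. The planted changes were far larger than the simulated spread between libraries. The simulation therefore checks the computation and not how small a change these libraries could show.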

Additional observations from a re-analysis of the deposited data

How the results depend on the processing

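Of 139 comparisons of a value with its alternative, 118 kept their direction and, for single genes, their call, or for a count stayed within 1.5 times. Part of the 118 could not have changed, so the tally is no measure of robustness. Gje1 had no island to count under any alternative. A call of higher in fibers cannot be undone by leaving out 1 library or by pairing libraries. The number of genes higher in fibers, 4, was 3 under the median reads per kb, both choices of an equal number of islands, and the rule of 50% inside the window. Gja3 and Aqp5 kept direction and call in covered share under every alternative. The contrast of fiber with epithelial channel genes kept its direction under those run for it. It was not run with the median reads per kb, the rule of 50% inside the window or the minimum overlap. For Gja1 the difference was -5.68 points with islands of at least the median reads per kb, -5.68 points with an equal number of islands by read count and -8.81 points with an equal number by reads per kb, in each case with the epithelium libraries above, and leaving out 1 library gave -8.81 to 1.42 points. Under the same 3 choices, 1 gene in place of 0 was higher in epithelium, and leaving out 1 library gave 0 to 1. For Aqp1 the difference was 4.14, 20.9 and -0.38 points under those choices in that order, without a call. For Mip it was 8.69 points when islands had to lie at least 50% inside the window. The islands lost by each rule are those with fewer reads or fewer reads per kb, or in the case of Mip the long island of fiber 1. Reads per kb divided by the total of reads in islands of the library reversed the ratio of fiber to epithelium at Aqp5 to 0.272 and at Mip to 0.3504, since fiber libraries have more reads in islands in all.

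The libraries share replicate numbers across compartments, but the deviations of same-numbered libraries were not related (correlation 0.00635 over 14147 genes), so the numbers were not taken as pairs. With a replicate block, Gja1 was -3.70 points with both pairs negative, so that 1 gene was higher in epithelium, and no other call changed.

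The precision is limited by 2 libraries per compartment, by the unknown depth, and by the caller: islands below its threshold are missing, and lengths come in steps of 200 bp. A full window cannot show a larger difference, which bears on Mip and Gja3.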

Other observations

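Of 8 genes of the ion circulation of the lens, 4 were higher in fibers, against 45.0% of all protein-coding genes, none was higher in epithelium and 1 had no island. The median difference was 4.80 points against 4.72 points for all genes, so that the list lay close to the background. Panx1, a channel of the pannexin family, had no island in epithelium and 45.7% and 16.1% in fibers. Trpv4, an ion channel that responds to swelling, had 7.78% and 32.1% in epithelium and 40.8% and 52.8% in fibers.

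The aquaporin genes Aqp2, Aqp5 and Aqp6 lie next to each other on chromosome 15, and their windows share islands. Aqp2, known from the kidney, had 0% and 22.0% of its window covered in epithelium and 24.2% and 25.5% in fibers, and like Aqp5 was higher in fibers, with the same longest islands of 5.8 and 6.0 kb in fibers. Aqp6 had 32.7% and 9.952% in epithelium and 0% and 28.4% in fibers, which overlap. Aqp3, a channel for water and glycerol, was covered in epithelium 1 alone, over 22.0% of its window. Aqp2 and Aqp3 were picked out after their values were seen.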
